A study of Mus musculus with 16 samples.

Results

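The miRNAs described are the guide arms (the strand of the hairpin that is usually kept) of miR-10a, miR-10b, miR-196a and miR-196b, whose genes lie inside the Hox clusters. They were chosen by name: mmu-miR-10a-5p, mmu-miR-10b-5p, mmu-miR-196a-5p and mmu-miR-196b-5p (written without the prefix mmu, for mouse, from here on) are 4 of the 1167 mature miRNAs with reads in the table. Small RNA was sequenced from mouse 3T9 cells, an immortalised fibroblast line that arose from embryo cells. All cells were kept without serum for 72 h, which makes them quiescent, and serum-deprived cells (0 h) were compared with cells given medium with 10% FBS (fetal bovine serum) for 1, 2, 4, 6, 8, 10 or 12 h. Each of these 8 times had 2 libraries, replicate 1 and replicate 2, from experiments that the series calls independent.

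Hox genes encode transcription factors that give cells along the body axis their positional identity, and fibroblasts in culture keep part of the Hox pattern of the place they came from. The miR-10 and miR-196 genes sit between Hox genes, are transcribed with their neighbours, and target Hox mRNAs among others. miR-196 is best known for repressing Hoxb8 and other posterior Hox genes, and miR-10 lies next to the Hox4 genes.

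The reference sequences, taken from RefSeq on GRCm38.p6, are shown because each pair differs by only 1 base, which bears on how reads were assigned. Capitals mark the seed, bases 2 to 8, which pairs with target mRNAs.
miR-10a-5p: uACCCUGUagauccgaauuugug
miR-10b-5p: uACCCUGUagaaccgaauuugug
miR-196a-5p: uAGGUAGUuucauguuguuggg
miR-196b-5p: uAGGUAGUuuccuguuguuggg
The seed is the same within each pair and differs between the pairs. Counted from 1 at the 5′ end, miR-10a-5p and miR-10b-5p differ by U12A (the miR-10a base first) and miR-196a-5p and miR-196b-5p by A12C. The rule for reads with a mismatch is not given in the sources used here, so reads of a rarer member may belong to its abundant partner, which for miR-196a-5p could be all of them. This was not tested.

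The members report on 4 Hox clusters. Mir196b (chromosome 6, 52230081 to 52230165, minus strand, GRCm38) lies in the HoxA cluster within exons of noncoding transcripts of Hoxa9, 1032 bp from Hoxa10. Mir10a (chromosome 11, 96317165 to 96317274, plus strand) lies in the HoxB cluster between genes, 993 bp upstream of Hoxb4. Mir10b (chromosome 2, 74726070 to 74726137, plus strand) lies in the HoxD cluster, in introns of Hoxd3 and Hoxd4 transcripts. miR-196a-5p has 2 genes with the same mature sequence, so its reads cannot be assigned to one of them. Mir196a-1 (chromosome 11, 96265164 to 96265265, plus strand) is 6192 bp upstream of Hoxb9, and Mir196a-2 (chromosome 15, 102973350 to 102973434, plus strand) is in an intron of a long noncoding Hoxc5 transcript, 1457 bp from Hoxc10. Reads of a host transcript such as that of Hoxa9 were not told apart from miRNA reads.

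Libraries held 5852087 to 7783249 miRNA reads, and chi-square tests over miRNAs put the replicate pair of each time at 58.8 to 324 per degree of freedom, far over sampling noise. The header names 2 sequencing runs, each with all libraries of 1 replicate number, so run and experiment cannot be told apart. Of 6 miRNAs on the mesenchymal and fibroblast list all were above 10 CPM (counts per 1000000 reads, on scaled library totals), with a summed level of 319000 to 425000 CPM. The list was miR-143-3p, miR-145a-5p, miR-199a-3p, miR-214-3p, miR-21a-5p and miR-22-3p. How far each of these is particular to such cells was not tested. The markers with an entry for blood (4 of 5, summed level 0.299 to 1.90 CPM) and for pluripotent cells (1 of 5, 0 to 0.339 CPM) were at or near 0, as were miR-124-3p of neurons, miR-122-5p of liver, and miR-200a-3p, miR-200b-3p, miR-200c-3p and miR-141-3p of epithelia. Above 10 CPM were 1 of 4 on the neural list (sum 179 to 359 CPM), 1 of 5 on the epithelial list (64.5 to 138 CPM) and 2 of 3 on the liver and gut list (641 to 877 CPM), and their part in the results was not tested.

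The HoxA member gave most of the Hox-cluster reads. miR-196b-5p took 29460 of the 33202 reads of the 4 members, 88.7% in all and 81.9% to 91.8% in a library. miR-10a-5p of HoxB took 9.87% and miR-10b-5p of HoxD 1.37%. miR-196a-5p had 10 reads in all 16 libraries together. The order miR-196b-5p, miR-10a-5p, miR-10b-5p, miR-196a-5p held in 16 of 16 libraries, on the scale of read counts of whole mature miRNAs, which are of nearly equal length. Ligation and amplification differ between sequences, so these shares are of reads and not of molecules. None of the 4 was among the abundant miRNAs of these cells: by mean level they ranked 95 (miR-196b-5p), 200 (miR-10a-5p), 325 (miR-10b-5p) and 766 (miR-196a-5p) of 1167.

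miR-196b-5p declined through the course. In replicate 1 its level was 329 CPM at 0 h, 299 at 1 h, 261 at 2 h, 240 at 4 h, 233 at 6 h, 222 at 8 h, 186 at 10 h and 198 at 12 h. In replicate 2 it was 406, 404, 374, 250, 223, 221, 234 and 206 CPM at the same times. Both experiments thus had their highest level at 0 h, and all 10 libraries from 4 h on lay below all 6 libraries of the first 2 hours. How many other miRNAs were separated in this way was not counted.

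The time means of miR-196b-5p were in strict order, from 367 ± 53.9 CPM (SD, n = 2) at 0 h through 352 ± 73.8 at 1 h, 318 ± 80.1 at 2 h, 245 ± 6.93 at 4 h, 228 ± 6.78 at 6 h, 221 ± 0.538 at 8 h and 210 ± 33.4 at 10 h to 202 ± 5.37 at 12 h. Neighbouring times overlapped between 0 and 1 h, 1 and 2 h, 8 and 10 h, and 10 and 12 h, and did not overlap between 2 and 4 h, 4 and 6 h, and 6 and 8 h. At each step up to 8 h the level was lower at the later time in 2 of 2 experiments. From 8 to 10 h and from 10 to 12 h it was lower in 1 of 2. For how many other miRNAs neighbouring times did not overlap was not counted. In bulk RNA, fewer cells with a miRNA and less of it per cell cannot be told apart, and CPM is a level relative to the other miRNAs.

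**Figure D1:**
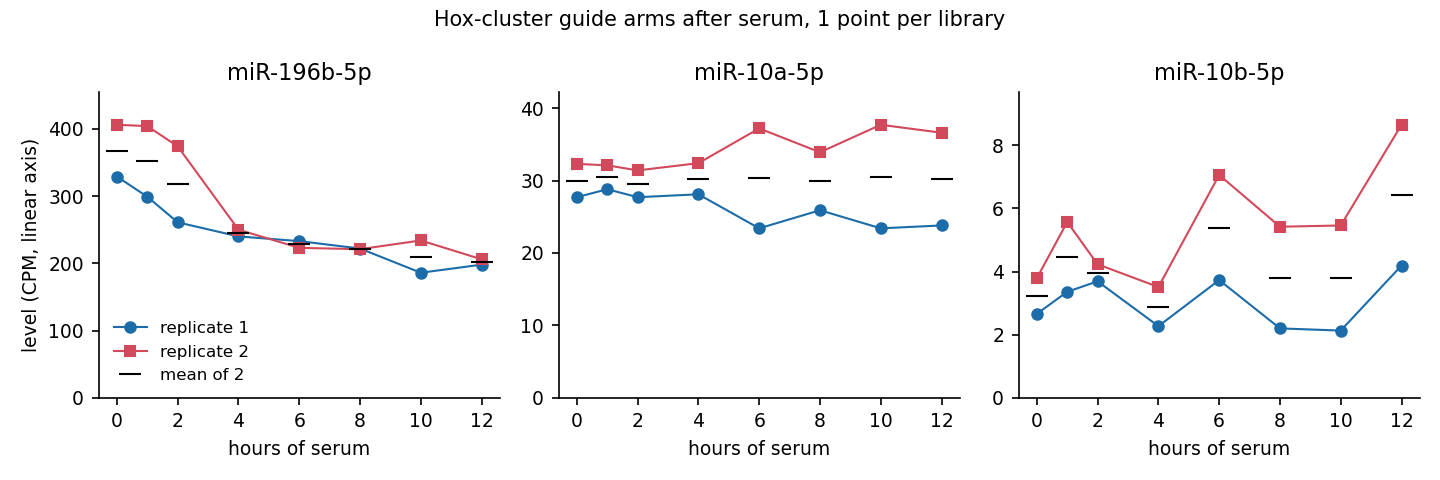
Level in CPM (linear axes that start at 0) against hours of serum for miR-196b-5p, miR-10a-5p and miR-10b-5p, with 1 point per library, lines joining the libraries of a replicate number and dashes at the mean of 2. miR-196b-5p falls from 329 and 406 CPM to 198 and 206 CPM, while the miR-10a-5p replicates stay apart and their mean is level.

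Across all 449 miRNAs that passed the low-count filter, miR-196b-5p passed the test of any change over the course (Benjamini-Hochberg adjusted p = 0.0189, edgeR quasi-likelihood), as did 13.8% of those tested. miR-10a-5p (adjusted p = 1) and miR-10b-5p (0.759) also passed the filter and did not pass this test, and miR-196a-5p was too rare to be tested. The call of miR-196b-5p was lost without 0 h replicate 2 (0.0809), 12 h replicate 1 (0.0557) or 12 h replicate 2 (0.0554).

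Against 0 h, miR-196b-5p was called lower at 6, 8, 10 and 12 h in the main fit, which does not date the start of the fall. Its log2 change was -0.06 ± 0.196 (SE) at 1 h, -0.21 ± 0.196 at 2 h and -0.58 ± 0.197 at 4 h, with adjusted p of 0.994, 0.858 and 0.0952 (edgeR quasi-likelihood test). It fell by 0.69 at 6 h (SE 0.198, adjusted p = 0.048), 0.73 at 8 h (SE 0.198, adjusted p = 0.0329), 0.81 at 10 h (SE 0.198, adjusted p = 0.0143) and 0.86 at 12 h (SE 0.198, adjusted p = 0.00813). Of all tested miRNAs, 2.90% were called lower at 6 h, 3.34% at 8 h, 4.68% at 10 h and 6.01% at 12 h. Called in either direction were 0.445% at 1 h, 2.45% at 2 h, 7.57% at 4 h, 7.80% at 6 h, 9.58% at 8 h, 11.8% at 10 h and 14.3% at 12 h. By rank, at 12 h the change of miR-196b-5p was the 37th lowest of 449, with a median of 0.00467 over all. With the replicate number as a block the 4 h fall passed as well (-0.57, adjusted p = 0.0125).

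The call at 6 h was close to the threshold and was lost with DESeq2 size factors (-0.65), when only miRNAs averaging 10 CPM or more were fitted (-0.67), and in 14 of 16 fits that left out 1 library (-0.77 to -0.52 over the 16). The call at 8 h was lost in 9 of 16 such fits (-0.84 to -0.57). Leaving out 0 h replicate 2 (-0.65) or else 10 h replicate 1 (-0.62) ended the call at 10 h. The call at 12 h ended when 0 h replicate 2 (-0.71), 12 h replicate 1 (-0.82) or 12 h replicate 2 (-0.86) was left out.

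As a linear trend over all 16 libraries the log2 level of miR-196b-5p changed by -0.0749 ± 0.0114 (SE) each hour, with an adjusted p of 6.24e-05 in the edgeR test, and 13.1% of tested miRNAs were called falling (25.2% in either direction). The slope was -0.058 ± 0.00818 (SE) in replicate 1 alone (adjusted p = 0.000547) and -0.087 ± 0.0161 in replicate 2 alone (adjusted p = 0.00522). It passed in all 28 alternatives run, among them the fit without the 0 h libraries (-0.0676, adjusted p = 0.00226).

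**Figure D2:**
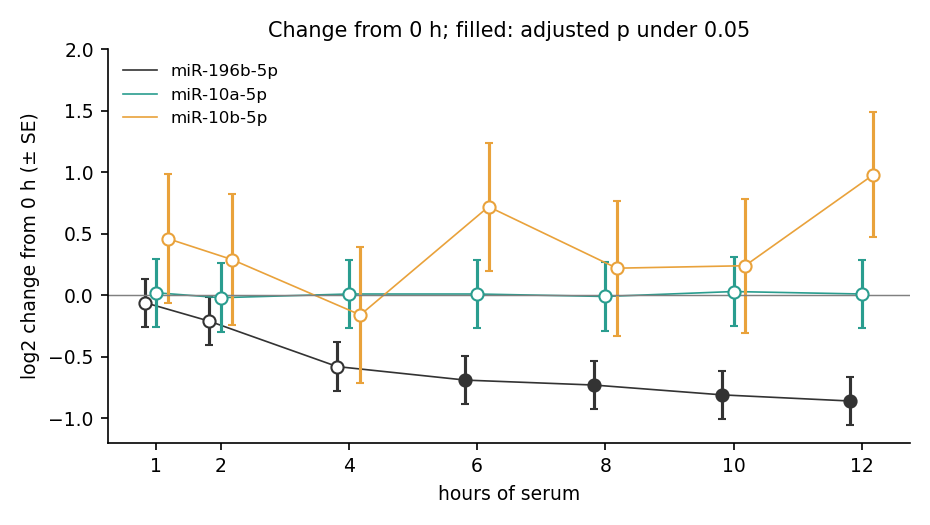
Log2 change from 0 h with its standard error against hours of serum for the 3 members that passed the low-count filter, where filled points have an adjusted p under 0.05. miR-196b-5p is filled at 6, 8, 10 and 12 h (-0.69 to -0.86), miR-10a-5p lies at -0.02 to 0.03, and no point of miR-10b-5p is filled.

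miR-10a-5p, the HoxB member, had a level mean. In replicate 1 its level was 27.7 CPM at 0 h, 28.8 at 1 h, 27.7 at 2 h, 28.1 at 4 h, 23.4 at 6 h, 25.9 at 8 h, 23.4 at 10 h and 23.8 at 12 h. In replicate 2 it was 32.3, 32.1, 31.4, 32.4, 37.2, 33.9, 37.7 and 36.6 CPM. The replicates did not overlap, and replicate 2 was the higher at all 8 times, by more from 6 h on than before.

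The mean of miR-10a-5p was 30.0 ± 3.28 CPM (SD, n = 2) at 0 h and 30.2 ± 9.10 at 12 h, a log2 change of 0.01 ± 0.279 (SE; adjusted p = 0.984, edgeR quasi-likelihood test). Its trend was 0.00111 ± 0.0143 per hour (adjusted p = 0.957), and the sign of both values turned in several alternatives (-0.15 at 12 h and -0.0119 per hour with total counts). The slope was -0.0217 ± 0.0104 in replicate 1 alone (adjusted p = 0.172) and 0.0205 ± 0.0125 in replicate 2 alone (adjusted p = 0.316). The difference between these slopes was 0.0447 ± 0.0142 per hour (adjusted p = 0.454, edgeR interaction term). By that edgeR term 0 of 449 miRNAs were called and 24, miR-10a-5p among them, had an unadjusted p under 0.05. The slopes were thus not shown to differ, and a level mean of 2 experiments that stood apart does not show that the level was constant.

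miR-10b-5p, the HoxD member, was rare, with 13 to 55 reads per library. In replicate 1 it was at 2.66 CPM at 0 h, 3.36 at 1 h, 3.69 at 2 h, 2.27 at 4 h, 3.73 at 6 h, 2.20 at 8 h, 2.13 at 10 h and 4.19 at 12 h. In replicate 2 it was at 3.79, 5.57, 4.23, 3.51, 7.06, 5.42, 5.46 and 8.65 CPM. Each experiment had its highest level at 12 h, replicate 2 was above replicate 1 at all 8 times, and the libraries of 12 h lay above those of 0 h. How many of all miRNAs were separated like this was not counted, and the main fit did not call the 12 h change.

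The 12 h change of miR-10b-5p in log2 was 0.98 ± 0.508 (SE), with an adjusted p of 0.23 in the edgeR test, from 47 reads at 0 h to 83 at 12 h over both libraries. With the replicate number as a block it passed (0.97, adjusted p = 0.0175), and it also passed in a fit of the 0 h and 12 h libraries alone (0.96, adjusted p = 0.0295). Over the 23 alternatives run the adjusted p was 0.0175 to 0.768, and without 1 library the change was 0.41 to 1.44. Its trend was 0.047 ± 0.0309 per hour (adjusted p = 0.288), with 0.00723 ± 0.0321 in replicate 1 alone and 0.0711 ± 0.0284 in replicate 2 alone. Without 12 h replicate 2 the trend was 0.014. At the other times its log2 change was -0.16 to 0.72, and none was called.

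miR-196a-5p, the member with genes in HoxB and HoxC, had at most 2 reads in a library and 0 reads in 7 of 16. A count of 0 allows up to 0.385 to 0.513 CPM, taken as 3 counts of a library's total, so all libraries were at or under what this depth resolves. Its reads were 3 in replicate 1 and 7 in replicate 2, and no change over time was detectable at this depth.

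Ratios of 2 members within a library need no scaling, and all 6 pairs were correlated with the hour of serum by a 2-sided permutation test over 16 libraries, with p-values adjusted over the 6. The log2 ratio of miR-10a-5p to miR-196b-5p rose from -3.61 ± 0.0548 (SD, n = 2) at 0 h to -2.77 ± 0.402 at 12 h, and was -3.65 to -2.49 over all libraries. Pearson's r with the hour was 0.785 (permutation p = 0.00048, adjusted 0.00288) and Spearman's rho was 0.805 (permutation p = 0.00035, adjusted 0.0021). Within replicate 1 r was 0.817 (permutation p = 0.0136, adjusted 0.0814) and within replicate 2 it was 0.916 (permutation p = 0.00297, adjusted 0.0127). Without the 2 libraries farthest from the median hour, those of 12 h, r was 0.802 (permutation p = 0.00089, adjusted 0.00534). The ratio of the HoxB to the HoxA member thus rose with the hour over the 16 libraries, though within replicate 1 alone it did not pass after adjustment. A ratio does not tell which of its 2 members moved.

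The log2 ratio of miR-10b-5p to miR-196b-5p went from -6.82 ± 0.141 (SD, n = 2) to -5.05 ± 0.693. Its r with the hour was 0.667 (permutation p = 0.00536, adjusted 0.0161) and its rho 0.68 (permutation p = 0.00526, adjusted 0.0158), with r of 0.577 in replicate 1 (adjusted permutation p = 0.404) and 0.9 in replicate 2 (adjusted permutation p = 0.0127). Without the 12 h libraries r was 0.524 (adjusted permutation p = 0.166), so the relation rested on them, and the call was also lost without 12 h replicate 2 alone (r = 0.575, adjusted permutation p = 0.0781).

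The log2 ratio of miR-10a-5p to miR-10b-5p, which share a seed, was 3.21 ± 0.196 (SD, n = 2) at 0 h and 2.28 ± 0.291 at 12 h. Its r with the hour was -0.346 (permutation p = 0.19, adjusted 0.285) and its rho -0.337 (permutation p = 0.206, adjusted 0.308). The r was -0.236 in replicate 1, -0.591 in replicate 2 and -0.0116 without the 12 h libraries. The 3 ratios with miR-196a-5p rest on 10 reads and were not called.

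**Figure D3:**
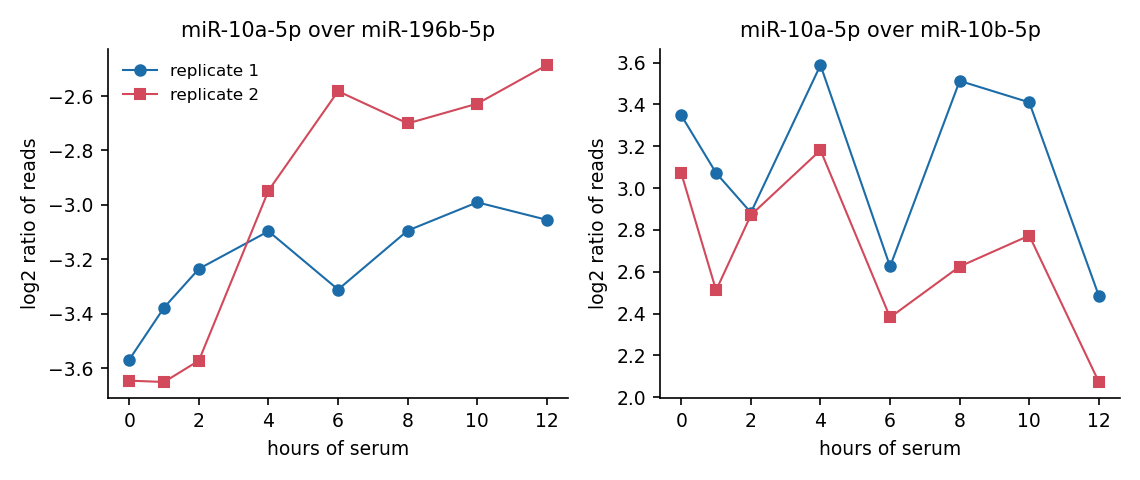
Log2 ratio of reads (0.5 added to each count) against hours of serum, for miR-10a-5p over miR-196b-5p and miR-10a-5p over miR-10b-5p, with 1 point per library and lines joining a replicate number. The first ratio rises in both replicates, with a mean of -3.61 at 0 h and -2.77 at 12 h. Its highest value was -2.99 in replicate 1 and -2.49 in replicate 2. The second ratio moves up and down between 2.07 and 3.59, with the lowest point of each replicate at 12 h.

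The opposite arms of the Hox-cluster hairpins were nearly absent. The hairpin of Mir196b from RefSeq is shown with both arms in capitals, the 5p arm first, because its 3p arm is made from 1 gene only.
Mir196b hairpin: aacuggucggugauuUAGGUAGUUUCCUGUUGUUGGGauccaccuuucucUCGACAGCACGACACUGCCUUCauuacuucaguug
miR-196b-3p had 60 reads in all against 29460 of the 5p arm, 0.203% of the reads of both. It had 5 reads at 0 h, 16 at 1 h, 8 at 2 h, 11 at 4 h and 5 at each of 6, 8, 10 and 12 h over both libraries, of which 12 came from the library of 1 h replicate 2. It did not pass the low-count filter and was not tested. miR-10a-3p had 3 reads, all in 1 library of 8 h. miR-615-3p, from a hairpin in a Hoxc5 intron (chromosome 15, 103014910 to 103015001), had 21 reads, 19 in replicate 1 and 2 in replicate 2, and was not tested. Of this list of other Hox-cluster arms, 0 of 3 with reads could be tested.

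miR-99a-5p, miR-99b-5p and miR-100-5p are relatives of miR-10 that lie outside the Hox clusters, and miR-100-5p is shown to let the sequences be compared.
miR-100-5p: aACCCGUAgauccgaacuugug
miR-100-5p shares 11 bases in a row with miR-10a-5p, from base 7 of miR-10a-5p and base 6 of miR-100-5p, but has another seed. The mean level was 92000 CPM for miR-99b-5p and 13200 CPM for miR-100-5p, far above all Hox-cluster members. For miR-99a-5p it was 416 CPM (313 to 481 over libraries), a range that overlapped that of miR-196b-5p (186 to 406). Of these, 0 of 3 passed the test of any change by edgeR, where 13.8% of all tested miRNAs passed. A count of 0 of 3 thus does not set them apart. Their adjusted p in this edgeR test was 0.514, 0.94 and 0.848 (unadjusted p 0.175, 0.743 and 0.535). Their log2 changes at 12 h were 0.13 ± 0.094, 0.04 ± 0.136 and -0.20 ± 0.168 (SE).

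The table also splits the reads of each miRNA by their ends, which the choice of members did not use. The meaning of these classes was read from the names of the entries, without a legend, and all values by form or added base depend on it. By those names, a read can match the reference ends, be trimmed, carry templated bases of the hairpin beyond the 3′ end, carry non-templated bases added at the 3′ end, or differ at the 5′ end. The Hox-cluster members differed widely in these forms. Each form is relative to the reference end of its own miRNA. The RefSeq sequence has 23 bases for miR-10a-5p and miR-10b-5p and 22 for miR-196b-5p. The part of this difference in length in the shares was not tested. Of the miR-10a-5p reads, 83.6% were trimmed (95% exact binomial interval 82.3% to 84.8%, counting error only), with 75.7% to 88.0% over libraries. Of the miR-10b-5p reads, 88.8% were trimmed (85.5% to 91.5%). Of the miR-196b-5p reads, 16.7% were trimmed (16.3% to 17.1%), which equals the median of 16.7% over 215 miRNAs with at least 100 reads in every library. In mean trimmed share only 6 of these 215 were above miR-10a-5p and 4 above miR-10b-5p.

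Reads with reference ends made up 12.0% of miR-10a-5p, 7.47% of miR-10b-5p and 45.7% of miR-196b-5p. Extended reads were common only in the last of these 3: 16.8% of miR-196b-5p reads carried templated 3′ bases and 20.8% non-templated ones, against 2.01% and 2.32% for miR-10a-5p and 1.76% and 1.98% for miR-10b-5p. The intervals of miR-196b-5p (16.3% to 17.2% and 20.4% to 21.3%) did not overlap those of miR-10a-5p (1.56% to 2.56% and 1.83% to 2.89%). These intervals hold counting error only and are narrower than the spread between libraries. Over libraries the shares were 13.7% to 21.3% and 16.8% to 26.5% for miR-196b-5p. For miR-10a-5p they were 0.905% to 6.13% and 0.481% to 5.15%, so the library ranges did not overlap either. Changed 5′ ends were rare, at 11 of 29460 reads of miR-196b-5p, 3 of 3277 of miR-10a-5p and 0 of 455 of miR-10b-5p. The 0 of 455 allows up to 0.807% by the exact binomial interval.

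As miR-196b-5p declined, its share of reads with reference ends fell. The share was 48.6% at 0 h, 47.1% at 1 h, 45.3% at 2 h, 44.7% at 4 h, 45.3% at 6 h, 42.9% at 8 h, 40.4% at 10 h and 39.6% at 12 h in replicate 1. It was 49.0%, 49.9%, 47.3%, 47.8%, 44.4%, 39.6%, 44.9% and 39.9% in replicate 2. The 12 h libraries lay below those of 0 h by about the same amount in both experiments.

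Across 16 libraries this share had r = -0.887 with the hour (2-sided permutation p = 4e-05, adjusted over 5 forms 0.0002) and rho = -0.876 (permutation p = 4e-05, adjusted 0.0002). The r was -0.961 in replicate 1 (adjusted permutation p = 0.00045), -0.862 in replicate 2 (adjusted permutation p = 0.0356) and -0.83 without the 12 h libraries (adjusted permutation p = 0.00115). From 0 h to 12 h it changed by -9.06 percentage points, where the median over 215 miRNAs was -1.19 and 17 of them had a larger fall. The form with reference ends changed by -1.03 and -1.28 on the log2 scale of CPM from 0 h to 12 h in replicates 1 and 2. The corresponding values were -0.60 and -0.75 for trimmed reads, -0.55 and -0.65 for templated extensions, and -0.40 and -0.83 for non-templated additions, so each of these 4 forms was lower at 12 h in both experiments.

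The shares of the 5 forms add to 100%, so they are not independent. Trimmed reads went from 17.2% ± 0.652 (SD, n = 2) at 0 h to 19.5% ± 1.74 at 12 h, with r = 0.577 (permutation p = 0.0187, adjusted 0.0469) and rho = 0.509 (permutation p = 0.0473, adjusted 0.118). This call rested on the 12 h libraries (r = 0.429 without them, adjusted permutation p = 0.314), did not hold within replicate 1 (r = 0.619, adjusted permutation p = 0.124) or replicate 2 (r = 0.579, adjusted permutation p = 0.22), and was lost in 11 of 16 tests that left out 1 library.

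Templated extensions (15.1% ± 2.05 at 0 h and 18.2% ± 3.76 at 12 h, SD, n = 2) had r = 0.377 (permutation p = 0.149, adjusted 0.248), with rho = 0.373 (permutation p = 0.158, adjusted 0.263). Non-templated additions (18.9% ± 2.99 and 22.5% ± 5.65) had r = 0.3 (permutation p = 0.256, adjusted 0.32), with rho = 0.26 (permutation p = 0.332, adjusted 0.415). The replicates did not overlap for the additions (21.0% to 26.5% and 16.8% to 20.7%) and barely did for the extensions (13.7% to 16.5% and 16.3% to 21.3%). When hours were permuted within each replicate number, both passed (adjusted permutation p = 0.0124 and 0.0312). The r of templated extensions was 0.703 in replicate 1 and 0.734 in replicate 2, and that of non-templated additions was 0.759 and 0.352. Without the 12 h libraries r was 0.366 and 0.292, and without 1 library it was 0.251 to 0.487 and 0.128 (without 12 h replicate 1) to 0.456. Changed 5′ ends had r = -0.0713 (permutation p = 0.794, adjusted 0.794) and rho = -0.0506 (permutation p = 0.856, adjusted 0.856).

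**Figure D4:**
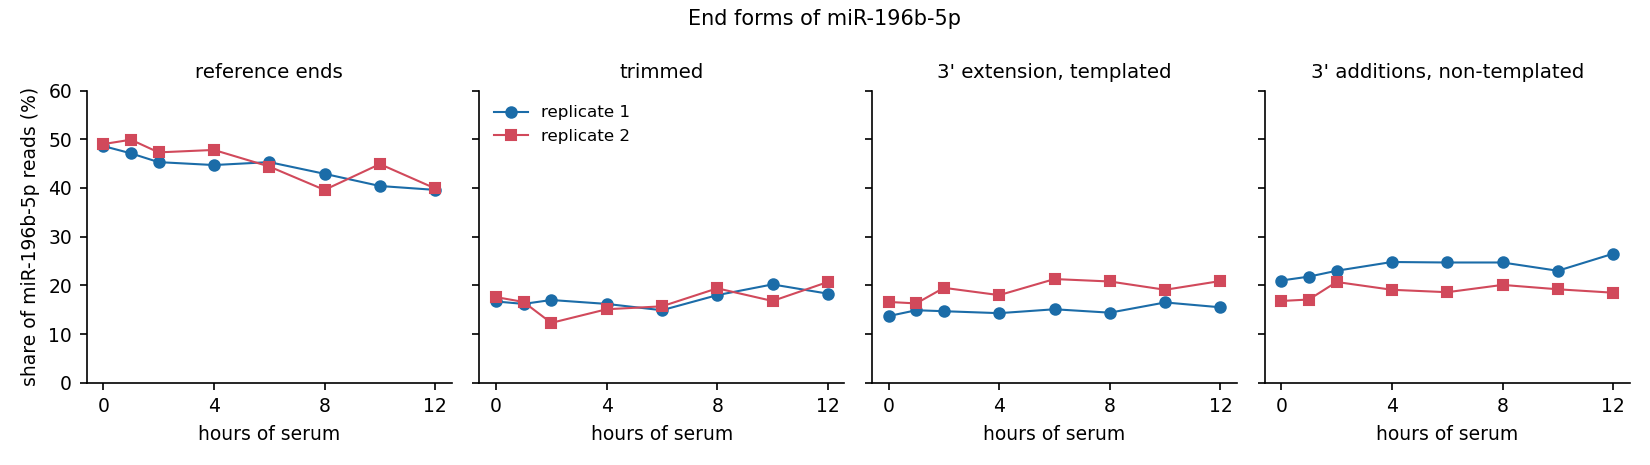
Share of miR-196b-5p reads in 4 end forms (percent, shared axis from 0) against hours of serum, 1 point per library, lines joining a replicate number. Reads with reference ends go from 48.6% and 49.0% at 0 h to 39.6% and 39.9% at 12 h, and the replicates lie apart for non-templated additions.

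The bases added to miR-196b-5p were mostly U. Among its non-templated 3′ additions U made up 52.3% to 70.2% in replicate 1 and 73.6% to 86.8% in replicate 2. In replicate 1 the share was 70.2% at 0 h and 56.7% at 12 h, and in replicate 2 it was 85.7% and 73.6%. Pooled, r with the hour was -0.465 (permutation p = 0.0702, adjusted 0.123 over the 5 forms and the U and A shares) and rho was -0.438 (permutation p = 0.0924, adjusted 0.162), and without the 12 h libraries r was -0.466. Within the experiments r was -0.836 and -0.893 (adjusted permutation p = 0.0346 and 0.0168), and with hours permuted within the replicate number the fall passed (adjusted permutation p = 0.000513). From 0 h to 12 h the share changed by -12.8 percentage points, with a median of -2.73 over 123 miRNAs with at least 50 such reads in every library, of which 99 fell and 6 had a larger fall. Over the additions of all miRNAs together, U also went down, from 48.8% to 40.1% in replicate 1 and from 44.8% to 35.0% in replicate 2.

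Added A went the other way. It was 3.44% of additions at 0 h and 8.83% at 12 h in replicate 1, and 4.78% and 9.92% in replicate 2. These shares rest on few reads, 17 and 31 in replicate 1 and 24 and 24 in replicate 2. Additions of mixed bases also rose, from 8.1% to 13.4% in replicate 1 and from 6.37% to 14.0% in replicate 2. The shares of additions are parts of a whole, so they are not independent. The r with the hour was 0.81 (permutation p = 0.00019, adjusted 0.000665) and rho 0.663 (permutation p = 0.00669, adjusted 0.0234), with r of 0.817 and 0.859 within the experiments (adjusted permutation p = 0.0346 and 0.0168) and 0.678 without the 12 h libraries (adjusted permutation p = 0.0229). The change was 5.26 percentage points, the median of the 123 miRNAs was 1.62, and 26 of them had a larger rise. The tests of added U and A were chosen after the values were seen.

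**Figure D5:**
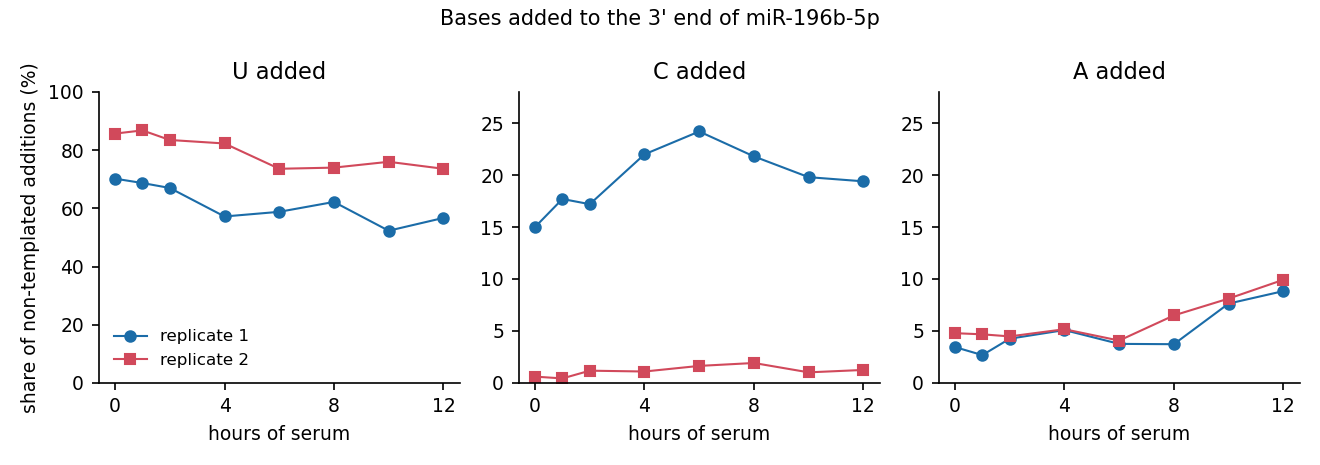
Share of U, C and A (percent, axes from 0 with their own upper ends) among the non-templated bases added to the 3′ end of miR-196b-5p, against hours of serum, 1 point per library and lines joining a replicate number. U falls and A rises in both replicates, and C is at 15.0% to 24.2% in replicate 1 and at 0.425% to 1.91% in replicate 2.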

How the data were processed

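The authors deposited unnormalised counts of reads for each miRNA and class of read ends, 1 column per library, per the file headers. The submitters' processing notes name CASAVA 1.8.0. For the aligner, miRBase release, genome build and mismatch rules, the step is not given in the sources used here. Per the labels' protocols, 1000 ng of total RNA went into each TruSeq small RNA library.

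Of 6511 entries 1 duplicate was dropped. Each miRNA's total summed its reference, trimmed, 3′ and 5′ classes, templated and not. The entries by added base repeat the non-templated class and were left out of totals. Sequences and coordinates were matched by name to RefSeq (GRCm38.p6), and transcripts to GENCODE M21.

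Counts of all 16 libraries entered 1 fit in edgeR 4.0.16 (limma 3.58.1, R 4.3.3), with TMM factors of 0.935 to 1.07, filterByExpr (minimum count 10) and calls at a Benjamini-Hochberg adjusted p under 0.05. After filtering, 449 miRNAs with at least 99.986% of reads remained. Each SE was derived from the log2 change and its F statistic. The fit was run on simulated counts with a fixed spread, no replicate effect and changes at 12 h larger than those of the members. It thus does not show how the fit behaves with a replicate effect or with smaller changes. Permutation tests used 100000 resamples (SciPy 1.17.1, NumPy 2.4.6). Alternatives included DESeq2 1.42.0 and limma-voom. Deviations of libraries with the same replicate number correlated in all 28 pairs of times (0.106 to 0.569), and the series names 2 experiments. The number was thus taken to pair libraries, but only in alternatives such as the replicate block. The main edgeR fits and the main permutation tests did not use this pairing.

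The text names the 4 members, the listed Hox-cluster arms, the miR-99/100 relatives and, for members of at least 10 CPM, the 3 tested miRNAs with the most similar profile. Members and lists were chosen with earlier results of these data known.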

Additional observations from a re-analysis of the deposited data

How the results depend on the processing

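The trend of miR-196b-5p kept its direction and its side of the threshold in all 28 alternatives, without 1 library at -0.0788 to -0.0691 per hour, and the fall of its share with reference ends did so in all tests run (r = -0.929 to -0.865 without 1 library). The changes of miR-196b-5p before 4 h turned sign without 1 library (-0.28 to 0.16 at 1 h, -0.46 to 0.15 at 2 h), and at 10 h the range was -0.93 to -0.62, at 12 h -0.97 to -0.71. With total counts the median of all miRNAs moved to -0.153 at 12 h and -0.0142 per hour, and miR-196b-5p was at -1.02 and -0.0883. The 12 h split was then 23 higher and 45 lower, against 37 and 27, and the trend split 37 and 111, against 54 and 59. For miR-10a-5p at 12 h the change was -0.15 with total counts, -0.01 with the replicate block, -0.02 with limma-voom and -0.01 with only the 0 h and 12 h libraries (-0.30 to 0.31 without 1 library). Its trend per hour was -0.0119, -0.00147 and -0.00201 in the first 3 of these, -0.0178 with reads of reference ends only and -0.0217 within replicate 1 (-0.0078 to 0.0111 without 1 library). For pairs with miR-196a-5p, r was 0.167 within replicate 1 (miR-10a-5p, -0.122 to 0.136 without 1 library) and -0.0378 without the 12 h libraries (miR-10b-5p). For changed 5′ ends r was 0.109 within replicate 1 (-0.198 to 0.031 without 1 library). With reads of reference ends only, the ratio of miR-10b-5p to miR-196b-5p had r = 0.472 (adjusted permutation p = 0.134).

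The count of miRNAs past the test of any change, 62, was 101 with no filter, 39 among miRNAs averaging 10 CPM or more, 110 with the replicate block and 36 to 60 without 1 library. Counts at 1, 2, 4, 6, 8, 10 and 12 h were 2, 11, 34, 35, 43, 53 and 64, and with the replicate block 5, 31, 66, 77, 81, 84 and 108. Among miRNAs averaging 10 CPM or more the first 4 were 0, 7, 15 and 20. The 2 h count was 20 without a filter and 17 with the DESeq2 test, and the 1 h count was 1 with reads of reference ends only. Without 1 library the 7 counts were 0 to 3, 2 to 13, 14 to 36, 16 to 38, 20 to 43, 23 to 60 and 37 to 65. The trend count, 113, was 59 without the 0 h libraries, 55 within replicate 2 and 96 to 120 without 1 library. The main fit tested 449 miRNAs, of which 62 were 13.8%. Settings with another filter tested other numbers of miRNAs, so their counts are not shares of the same set. The cause of the differences was not tested beyond that. As given above, the replicate block added the calls of miR-196b-5p at 4 h and of miR-10b-5p at 12 h. It also added those of templated extensions, non-templated additions and added U of miR-196b-5p. No other call of a member changed among those the block was run for. These were any change, 12 h and trend for miR-10a-5p and miR-10b-5p, all times for miR-196b-5p, the ratios, the forms and added U and A. Depth limits miR-196a-5p and the opposite arms, which had too few reads to be tested.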

Other observations

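The miRNAs with the profile most like that of miR-196b-5p over the 16 libraries, of 265 others with a mean of at least 10 CPM, were miR-574-5p (Pearson r = 0.945 of log2 CPM), miR-335-3p (r = 0.896) and miR-467a-5p (r = 0.892). These are descriptions: the points share libraries, runs and times. The r within replicate 1 and replicate 2 was 0.951 and 0.975 for miR-574-5p, 0.915 and 0.921 for miR-335-3p, and 0.876 and 0.888 for miR-467a-5p. The level of miR-574-5p went from 264 ± 40.9 CPM (SD, n = 2) at 0 h to 166 ± 8.86 at 12 h, and its log2 trend was -0.0526 each hour (adjusted p = 0.00389 by edgeR), with a 12 h change of -0.67 (adjusted p = 0.0522). miR-467a-5p, of the Sfmbt2 repeat cluster, stood at 105 ± 13.1 CPM at 0 h and 55.0 ± 3.34 at 12 h.

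Those most like miR-10a-5p were miR-103-3p (r = 0.919), miR-532-5p (r = 0.916) and miR-676-3p (r = 0.888). Within replicate 2 the values were 0.221, 0.41 and 0.448, and within replicate 1 they were 0.848, 0.842 and 0.443. Like miR-10a-5p, each of these had a higher level in all libraries of replicate 2 than in all of replicate 1 (1950 to 2210 against 2580 to 2890 CPM for miR-103-3p). How many of all miRNAs were split by replicate in this way was not counted, so the split is not shown to be particular to these. The part of the run in this likeness was not tested.

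Added C on miR-196b-5p differed sharply between the runs. It was 15.0% to 24.2% of the non-templated 3′ additions in replicate 1 and 0.425% to 1.91% in replicate 2, with no overlap. Of 123 miRNAs with at least 50 such reads in every library, 50 had a higher share of C in all replicate 1 libraries than in all replicate 2 libraries and 1 the reverse. The difference of miR-196b-5p, 18.5 percentage points between the run means, was the 10th highest, against a median of 0.279. The share of U on miR-196b-5p differed by -17.8 points (replicate 1 minus replicate 2), the lowest difference of the 123, against a median of 1.64. For U, 4 of the 123 were higher in all replicate 1 libraries and 2 were lower in all of them. The shares of C and U are parts of the same whole, so their differences are not independent. The run and the experiment cannot be told apart.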
